A study of Rattus norvegicus with 6 samples.

Results

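The early transcriptional response that many cell types share was examined in rat brain through 10 genes: Ier2, Ier3, Ier5, Ccn1, Ccn2, Btg2, Atf3, Klf2, Klf4 and Klf6. They were chosen by gene symbol, and 10 of 10 symbols were found among the 32623 genes of the table. The choice was made with the difference between the groups already known, so values of that difference are given as a description and support nothing further. Messenger RNA was sequenced from brain carrying the expression plasmid pcDNA3.1/LINC00894 (LINC00894, 3 libraries) and from brain carrying the empty plasmid pcDNA3.1 (vector, 3 libraries). LINC00894 is a human long intergenic non-coding RNA, and the study as titled concerns cerebral ischemia and reperfusion and the translation factor EIF5. The labels gave no age, sex, strain, brain region or time, and did not say whether these brains had been ischemic, how the plasmid was delivered or which cells took it up. Separate animals were not stated either, so a p-value here covers only library-to-library spread, part of which may be technical.

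Immediate early genes are transcribed within minutes of a stimulus without the need for new protein synthesis, because the factors that switch them on are already present in the cell. Serum response factor, CREB and the YAP-TEAD complex are among these factors. Some immediate early genes, such as Arc and Egr4, are best known from active neurons, whereas the 10 genes examined here are also induced in astrocytes, microglia, endothelium and vessel-wall cells by growth factors, stretch, blood flow or injury. Their messages are short-lived.

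Summed gene counts were 12843875 to 13328801 in LINC00894 libraries and 13384733 to 16268464 in vector libraries, and mitochondrially encoded genes held 8.92% to 10.6% and 9.47% to 11.1% of them. Neuronal markers were present in all 6 libraries (9 of 9 markers), as were astrocyte (7 of 7), microglial (8 of 8) and oligodendrocyte markers (5 of 5). Of 9 endothelial markers in the deposited data 8 had counts in every library, while Cldn5 was listed at 0 counts in all 6. The Y-linked genes Kdm5d and Eif2s3y were at 0 counts in LINC00894 replicates 1 and 2, whereas LINC00894 replicate 3 had 491 and 1394 and vector libraries had 501 to 930 and 997 to 1238. The LINC00894 libraries thus differed among themselves in sex-linked content. This content was also unbalanced between the groups, since every vector library had Y-linked counts. Its part in the fold changes cannot be fully told apart from that of the plasmid. Results are given below with and without single libraries where the value turns on them.

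All 10 genes passed the filter on low counts, with 66 to 1902 counts per library. The lowest of these, 66 counts of Ccn1 in LINC00894 replicate 2, has an exact Poisson 95% interval of 51 to 84 counts, which covers counting error only. By FPKM, a count scaled for exonic length and library size, Ier5 had the highest mean level over the 6 libraries, at 47.5 FPKM. It was followed by Btg2 (23.5 FPKM), Ier2 (19.7 FPKM), Klf2 (13.3 FPKM), Ccn2 (12.3 FPKM), Klf6 (11.8 FPKM), Ier3 (11.6 FPKM), Atf3 (10.5 FPKM), Ccn1 (10.01 FPKM) and Klf4 (8.54 FPKM). The ranges of all neighbouring genes in this order overlapped over the 6 libraries. Within each library Ier5 stood above Btg2, and the whole range of Ier5 (30.6 to 55.8 FPKM) lay above that of Ier2 (10.3 to 29.9 FPKM).

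**Figure D1:**
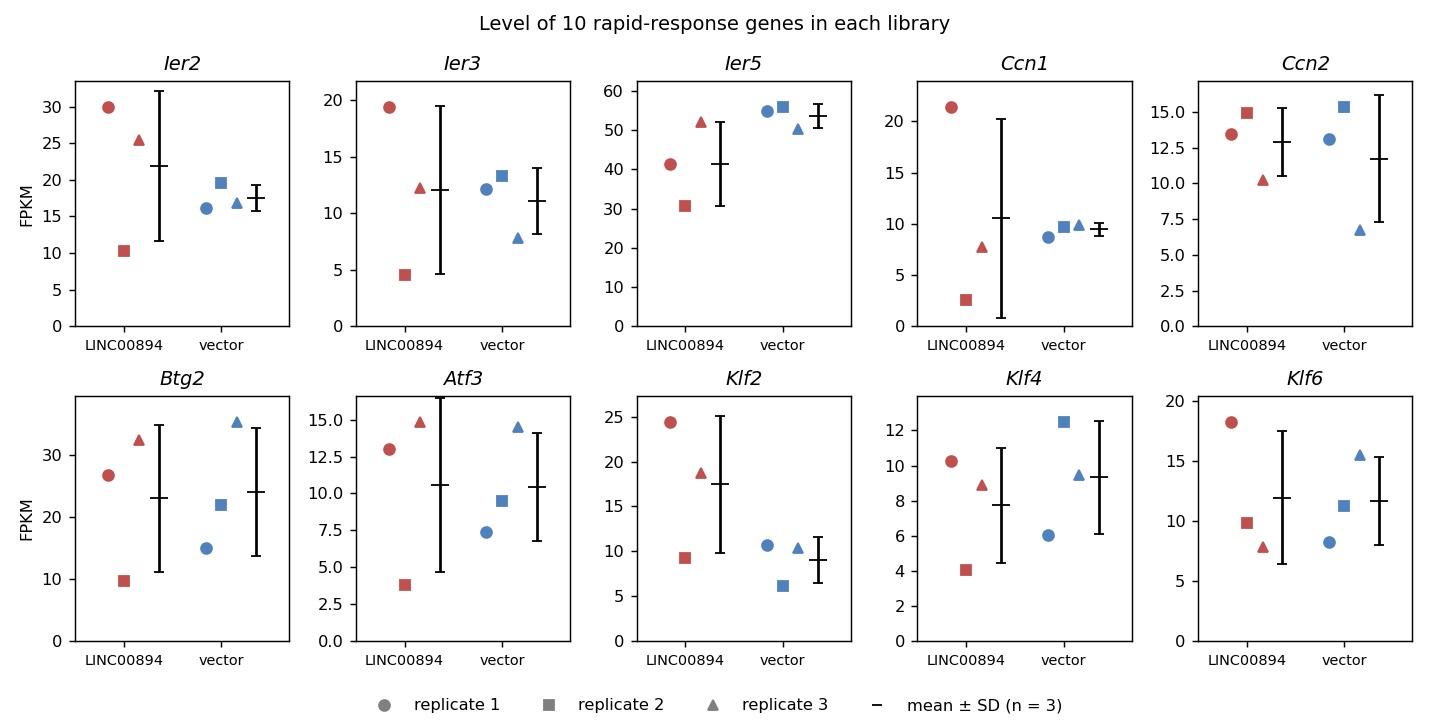
Level of each gene in FPKM (vertical axes, each starting at 0) in LINC00894 (red, left) and vector (blue, right) libraries; circles, squares and triangles are replicates 1, 2 and 3, and the black bars are the mean ± SD of 3 libraries. LINC00894 replicate 2 (red square) is the lowest of the 6 libraries for 7 genes, with Ccn1 at 2.59 FPKM against 21.4 FPKM in LINC00894 replicate 1.

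The 10 genes had fold changes of mixed sign between LINC00894 and vector brains, and their levels were uneven among the LINC00894 libraries. With values scaled to CPM (counts relative to the library total) on TMM-adjusted library sizes, LINC00894 replicate 2 was the lowest of the 6 libraries for 7 of the 10 genes (Ier2, Ier3, Ier5, Ccn1, Btg2, Atf3 and Klf4), against 12.1% of all 15121 genes tested. Within the LINC00894 group alone it was the lowest for 8 of the 10, Klf2 included, against 34% of all genes. LINC00894 replicate 1 was the highest for 5 of the 10 (Ier2, Ier3, Ccn1, Klf2 and Klf6), against 22.2% of all genes. In 7 of the 10 the value of LINC00894 replicate 2 was below 50% of the mean of the other LINC00894 libraries, against 4.97% of all genes, and the median over the 10 was 40.9%, against 98.7% over all genes. The SD of log2 CPM was larger among LINC00894 than among vector libraries in 9 of the 10, with Ccn2 as the exception, against 57.4% of all genes. Its median was 0.73 among LINC00894 libraries and 0.45 among vector libraries, where all tested genes had medians of 0.26 and 0.22. Most of these counts turn on LINC00894 replicate 2, which was picked out from the same values, so they are not separate observations. In bulk tissue, fewer cells of a type and less RNA per cell cannot be told apart.

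**Figure D2:**
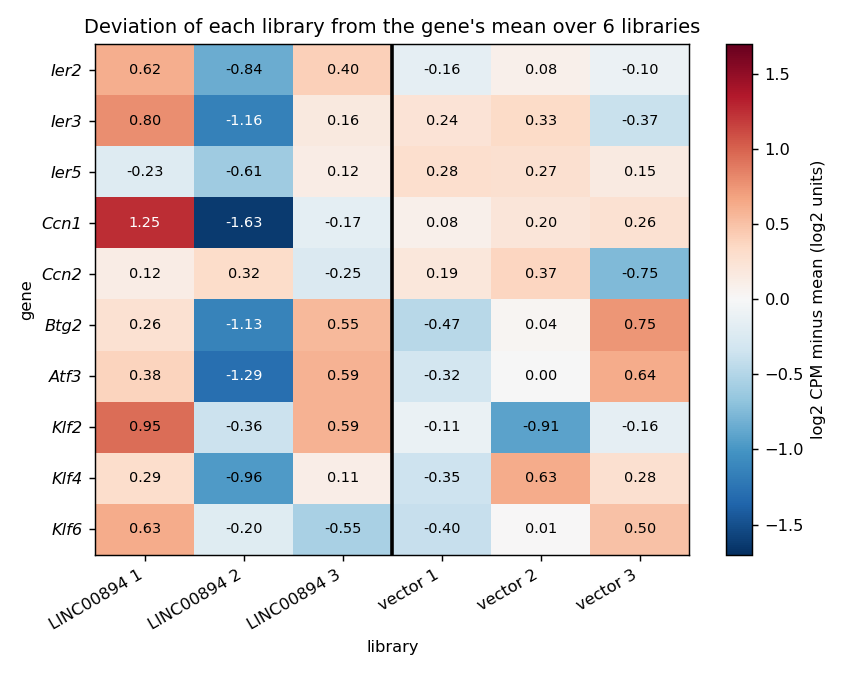
Deviation of each library (columns) from the gene's mean over the 6 libraries (rows), in log2 CPM; red is above and blue below the mean, and the black line parts LINC00894 from vector libraries. LINC00894 replicate 2 is below the mean in 9 genes, down to -1.63 for Ccn1, and above it in Ccn2 (0.32).

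The 3 IER genes code for small proteins of unrelated or only partly related sequence that share their rapid induction. Ier2, which codes for a nuclear protein induced by growth factors, had 29.9, 10.3 and 25.4 FPKM in replicates 1, 2 and 3 of the LINC00894 group, against 16.1, 19.6 and 16.9 FPKM in those of the vector group. Its vector libraries lay close together, between the low LINC00894 replicate 2 and the other LINC00894 libraries, so the groups overlapped. Its log2 fold change (LINC00894 over vector throughout) was 0.24 (SE 0.33), and 0.55 without LINC00894 replicate 2 but -0.04 without LINC00894 replicate 1. Ier3, also known as IEX-1, a stress-induced regulator of cell survival, stood at 19.4, 4.55 and 12.2 FPKM in LINC00894 libraries, against 12.1, 13.3 and 7.83 FPKM in vector libraries. Both ends of its range were LINC00894 libraries, and its log2 fold change was 0.05 (SE 0.43). It was 0.40 when LINC00894 replicate 2 was left out and -0.47 when LINC00894 replicate 1 was.

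Ier5, which in human cells is known as an activator of the heat shock factor HSF1, stood at 41.3, 30.6 and 52.2 FPKM in LINC00894 libraries, against 54.8, 55.8 and 50.2 FPKM in vector libraries. The mean was 41.4 ± 10.8 FPKM in LINC00894 and 53.6 ± 2.99 FPKM in vector (SD, n = 3 each), and its log2 fold change was -0.45 (SE 0.19, 95% interval -0.88 to -0.01). On the TMM scale all 3 LINC00894 libraries lay below all 3 vector libraries, at 83.4, 63.8 and 106.4 CPM against 118.8, 117.8 and 108.6 CPM, but in FPKM LINC00894 replicate 3 lay above vector replicate 3. Ier5 was the 1 of the 10 genes whose groups did not overlap, where 8.86% of all genes tested did not (3.88% lower and 4.98% higher in LINC00894). The log2 fold change of Ier5 stayed negative with each library left out in turn, from -0.67 without LINC00894 replicate 3 to -0.30 without LINC00894 replicate 2, and was -0.11 among the 4 libraries with Y-linked counts. By the table's coordinates (build not given in the sources used here) Ier2 (ENSRNOG00000054344) lies on chromosome 19 from 25774143 to 25775659. Ier3 (ENSRNOG00000000827) lies on chromosome 20 from 3438798 to 3440769, and Ier5 (ENSRNOG00000059406) on chromosome 13 from 72742210 to 72744303.

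Ccn1 and Ccn2, formerly Cyr61 and Ctgf, code for secreted proteins of the extracellular matrix that bind integrins, and both are textbook targets of YAP and TEAD in cells under mechanical load. Their patterns over the libraries differed. Ccn1 stood at 21.4, 2.59 and 7.71 FPKM in LINC00894 libraries, against 8.70, 9.73 and 9.93 FPKM in vector libraries. It thus varied 7.98-fold among LINC00894 libraries and 1.14-fold among vector libraries on the TMM scale. Its SD of log2 CPM among LINC00894 libraries, 1.44, was larger than that of 99.7% of all genes tested, whereas its SD among vector libraries, 0.093, was larger than that of 14.4%. The log2 fold change of Ccn1 was 0.08 (SE 0.56, 95% interval -1.17 to 1.33). Leaving out LINC00894 replicate 2 gave 0.51 and leaving out LINC00894 replicate 1 gave -0.94, and with all 6 libraries the value was also negative by limma, at -0.31 and -0.23 on log2-transformed FPKM (pseudocounts 0.1 and 1) and at -0.49 with sample weights.

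Ccn2 stood at 13.5, 14.9 and 10.3 FPKM in LINC00894 libraries, against 13.1, 15.3 and 6.77 FPKM in vector libraries. It was the 1 of the 10 genes for which LINC00894 replicate 2 was the highest of the LINC00894 libraries, and its lowest library was vector replicate 3. Its log2 fold change was 0.07 (SE 0.29), and -0.22 without vector replicate 3. Within a library, Ccn1 stood above Ccn2 in LINC00894 replicate 1 and vector replicate 3 and below it in the other four. Per the table, Ccn1 (ENSRNOG00000014350) lies on chromosome 2 from 251529354 to 251532312 and Ccn2 (ENSRNOG00000015036) on chromosome 1 from 21851660 to 21854773.

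The 250 bases before the gene start are shown for Ccn2 and Ccn1, known targets of the same complex that differed in pattern, and for Ier2 and Btg2, which hold the CREB-binding palindrome. The sequences are from RefSeq (GRCr8), 5′ to 3′ on the gene's strand, and the last base is next to the gene start. Capitals mark GGAATG, the core motif of TEAD factors, on either strand in Ccn2 and Ccn1, the core TGACG of the cAMP response element on either strand in Ccn1, and the full element TGACGTCA in Ier2 and Btg2. The windows are chr1:22624615-22624864 (minus strand) for Ccn2, chr2:237225690-237225939 (minus) for Ccn1, chr19:40399123-40399372 (plus) for Ier2 and chr13:48087691-48087940 (minus) for Btg2.
Ccn2: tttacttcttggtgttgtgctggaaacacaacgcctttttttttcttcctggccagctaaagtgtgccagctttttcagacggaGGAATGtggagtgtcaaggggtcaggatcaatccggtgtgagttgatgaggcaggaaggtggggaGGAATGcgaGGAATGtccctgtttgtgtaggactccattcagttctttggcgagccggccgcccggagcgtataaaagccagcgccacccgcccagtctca
Ccn1: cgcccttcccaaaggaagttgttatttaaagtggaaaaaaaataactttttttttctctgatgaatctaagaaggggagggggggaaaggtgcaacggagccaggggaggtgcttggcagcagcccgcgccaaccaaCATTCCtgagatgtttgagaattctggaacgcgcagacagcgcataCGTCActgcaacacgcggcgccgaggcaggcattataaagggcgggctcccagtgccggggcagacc
Ier2: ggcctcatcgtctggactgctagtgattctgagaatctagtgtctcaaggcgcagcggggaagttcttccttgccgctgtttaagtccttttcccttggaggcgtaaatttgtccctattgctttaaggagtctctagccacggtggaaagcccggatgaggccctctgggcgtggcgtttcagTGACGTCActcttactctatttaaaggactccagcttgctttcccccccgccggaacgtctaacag
Btg2: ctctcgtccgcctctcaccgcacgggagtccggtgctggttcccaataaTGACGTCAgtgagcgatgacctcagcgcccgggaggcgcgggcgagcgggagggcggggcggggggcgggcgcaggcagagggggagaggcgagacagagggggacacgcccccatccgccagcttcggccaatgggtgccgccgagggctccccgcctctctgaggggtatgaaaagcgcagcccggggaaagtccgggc

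Ccn2 held 3 matches to GGAATG, beginning at -166, -101 and -92 counted from the gene start, and Ccn1 held 1, on the opposite strand, at -113. Of 33469 rat promoter windows of this length, 12.1% held at least 1 match and 0.0807% held 3 or more. The palindrome TGACGTCA began at -66 in Ier2 and at -201 in Btg2, and 1.59% of all windows held it. The core TGACG, which is part of the palindrome, was in 3 of the 7 genes with a window (Ier2, Btg2 and Ccn1), against 18.2% of all windows. The AP-1 motif TGANTCA was in 0 of the 7 (6.34% of all windows), and the CArG box of serum response factor was in Klf6 alone (1.5%). The TATA motif TATAAA was in Ier5, Ccn1, Ccn2 and Klf4 (12.9%), and the KLF motif CACCC in Ier5, Ccn2 and Btg2 (49.2%). Both strands were searched for each motif. Ier3, Atf3 and Klf2 had no window in the table used. The Klf4 window lies inside the gene's RefSeq bounds, so its TATAAA matches, at -146 and -78 on the opposite strand, do not lie before the gene. A match is a description of these letters and not a bound site.

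**Figure D3:**
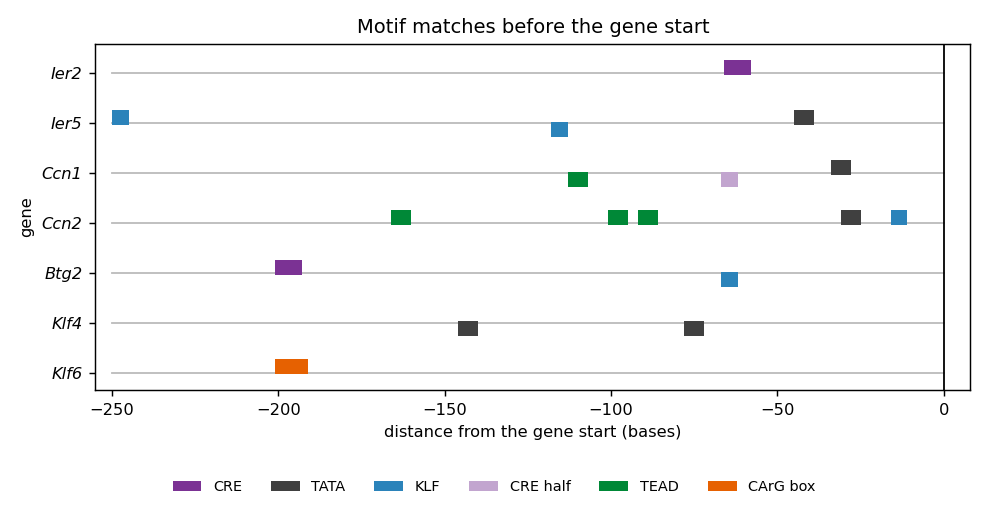
Motif matches in the 250 bases before the gene start (horizontal axis, distance in bases, with the gene start at 0) for 7 genes. For Klf4 the window lies inside the gene's RefSeq bounds. Boxes above a line are on the gene's strand and boxes below it on the opposite strand. Ccn2 has 3 TEAD matches and Ccn1 has 1, and the full cAMP response element (CRE) is in Ier2 and Btg2; a palindrome is drawn once.

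Btg2 and Atf3 followed each other closely over the libraries. Btg2, an antiproliferative protein that recruits the CCR4-NOT deadenylase to messenger RNA, stood at 26.8, 9.72 and 32.4 FPKM in LINC00894 libraries, against 14.99, 21.9 and 35.2 FPKM in vector libraries. Atf3, a bZIP transcription factor induced by many kinds of stress and by axon injury, stood at 13.01, 3.83 and 14.8 FPKM in LINC00894 libraries, against 7.4, 9.47 and 14.5 FPKM in vector libraries. Both genes were lowest in LINC00894 replicate 2 and highest in vector replicate 3 on the TMM scale, and the range of each LINC00894 group enclosed vector replicates 1 and 2. Pearson's r of log2 CPM between Btg2 and Atf3 was 0.985 over the 6 libraries. Their log2 fold changes were -0.14 (SE 0.42) and -0.06 (SE 0.43). Without LINC00894 replicate 2 they were 0.20 and 0.31, without vector replicate 3 they were 0.23 each, and without LINC00894 replicate 3 they were -0.50 and -0.42. Per the table, Btg2 (ENSRNOG00000003300) lies on chromosome 13 from 50913180 to 50916982 and Atf3 (ENSRNOG00000003745) on the same chromosome from 109817728 to 109849632.

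The 3 KLF genes code for zinc finger transcription factors that bind CACCC and related GC-rich sequences. Klf2, which endothelium induces under laminar blood flow, had the largest difference of the 10 genes. It stood at 24.4, 9.22 and 18.8 FPKM in LINC00894 libraries, against 10.7, 6.11 and 10.3 FPKM in vector libraries. LINC00894 replicates 1 and 3 lay above all vector libraries, while LINC00894 replicate 2 lay within their range. The mean was 17.5 ± 7.67 FPKM in LINC00894 and 9.05 ± 2.55 FPKM in vector (SD, n = 3 each), and the log2 fold change was 0.87 (SE 0.36, 95% interval 0.07 to 1.67). It stayed positive with each library left out in turn, from 0.56 without LINC00894 replicate 1 to 1.14 without LINC00894 replicate 2. Summed endothelial markers stood at 516, 270 and 318 CPM in LINC00894 libraries, against 331, 325 and 242 CPM in vector libraries. Per 100 CPM of these markers, Klf2 stood at 4.81, 3.59 and 6.07 CPM in LINC00894 libraries, against 3.53, 2.00 and 4.67 CPM in vector libraries. On this scale LINC00894 replicate 3 lay above all vector libraries and LINC00894 replicate 2 within their range. LINC00894 replicate 1 lay only just above vector replicate 3, at 4.81 against 4.67 CPM. Before this scaling it had 24.83 CPM, where the highest vector library, replicate 1, had 11.67 CPM. The marker sum lacked Pecam1 and Abcb1a, and Cldn5 had 0 counts. On the same scale Klf4 stood at 4.54, 3.54 and 6.46 CPM in LINC00894 libraries, against 4.46, 9.15 and 9.57 CPM in vector libraries. The part of endothelial RNA in the values of Klf2 and Klf4 was not tested.

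Klf4, which endothelium also induces under flow and which is best known as a reprogramming factor, stood at 10.3, 4.05 and 8.91 FPKM in LINC00894 libraries, against 6.03, 12.5 and 9.48 FPKM in vector libraries. Its log2 fold change, -0.34 (SE 0.35), was opposite in sign to that of Klf2, and it was -0.06 when LINC00894 replicate 2 was left out and -0.59 when LINC00894 replicate 1 was. Vector replicate 2 was the lowest library for Klf2 and the highest for Klf4. Klf6, a broadly expressed factor induced by tissue injury, stood at 18.2, 9.80 and 7.84 FPKM in LINC00894 libraries, against 8.23, 11.3 and 15.5 FPKM in vector libraries. Klf6 was lowest in LINC00894 replicate 3, and its log2 fold change was -0.04 (SE 0.33), -0.46 without LINC00894 replicate 1 and 0.21 without vector replicate 3. Per the table, Klf2 (ENSRNOG00000014205) lies on chromosome 16 from 19223087 to 19225037, Klf4 (ENSRNOG00000016299) on chromosome 5 from 72283313 to 72287669 and Klf6 (ENSRNOG00000016885) on chromosome 17 from 67887939 to 67945037.

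Between the groups as a whole, 5 of the 10 genes had a positive and 5 a negative log2 fold change, with a median of 0.0047, where the median of all tested genes was 0.012. By edgeR's quasi-likelihood test with Benjamini-Hochberg adjustment over all genes, 0 of the 10 passed 0.05, as did 0% of all genes tested. DESeq2 called 0 of the 10 and 8 of 22810 genes in all, and limma called 0 of the 10 and 0 genes in all. At an unadjusted p under 0.05 there were 2 of the 10 by edgeR, Klf2 higher and Ier5 lower, where 4.03% of all genes reached it (1.82% higher and 2.22% lower in LINC00894). Since the genes were chosen with this contrast known, nothing is read from these counts. The 95% intervals of the other 8 genes included 0 and reached at least 0.45 log2 units on each side, so differences of that size in either direction lay within them.

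**Figure D4:**
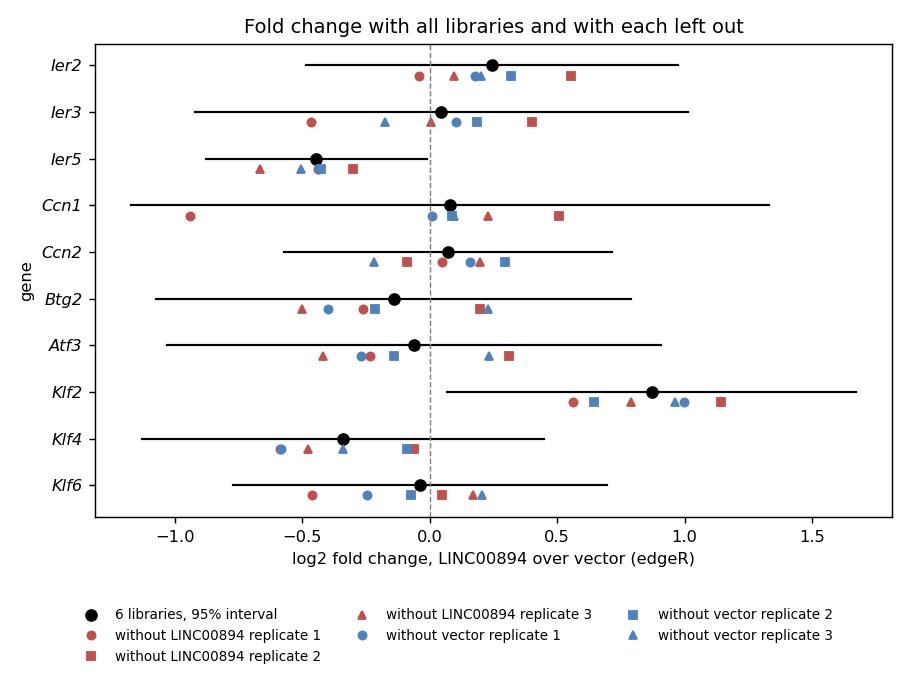
Log2 fold change of LINC00894 over vector (horizontal axis) for each gene, with all 6 libraries (black points with 95% intervals) and with 1 library left out (red for LINC00894, blue for vector; circle, square and triangle for replicates 1, 2 and 3). Klf2, Ier5 and Klf4 keep their sign in all 6 leave-one-out fits, and Ccn1 runs from -0.94 to 0.51.

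Over the 6 libraries, 35 of the 45 pairs among the 10 genes had a positive Pearson's r of log2 CPM, 12 pairs had an r of at least 0.7, and the median was 0.46. The points of each pair share libraries and scaling, and 1 low library can make such values. Ier2, Ier3 and Ccn1 were alike, with r of 0.903 for Ier2 and Ier3, 0.865 for Ier2 and Ccn1, and 0.895 for Ier3 and Ccn1. Ccn2 stood apart, with r from -0.74 (Btg2) to 0.095 (Ier3) to the others. Among 12466 genes with a mean of at least 1 FPKM, the gene most like Btg2 was Atf3 (0.985), and the gene most like Atf3 was Stmn4 (0.993). Those most like the other genes were RT1-CE4 for Ier2 (0.993), Pawr for Ier3 (0.992), Apex2 for Ier5 (0.968), Slc30a5 for Ccn1 (0.990), Zdhhc6 for Ccn2 (0.992), Slc50a1 for Klf2 (0.984), Cbln4 for Klf4 (0.976) and Osbp for Klf6 (0.999). With 6 libraries such values are common: 31 to 249 genes had an r of at least 0.9 to any 1 of the 10.

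The 10 genes were compact. Their median span from start to end was 3037 bases, against 20695 bases for all tested genes, while the median exonic length, 2230 bases, was close to the 2367 bases of all tested genes. Exons made up a median of 66.0% of the span, against 11.7%. Ier5 had a span of 2094 bases that was all exonic, and Ier2 was exonic over 96.9% of its 1517 bases. Atf3 and Klf6 were the exceptions in this table, with spans of 31905 and 57099 bases and 9.12% and 4.99% of them exonic.

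Other gene lists showed which related genes shared the low values of LINC00894 replicate 2, the lowest library for 12.1% of all genes. The median deviation of the 10 genes from their means was 0.50, -0.90 and 0.14 log2 units in LINC00894 replicates 1, 2 and 3, against -0.13, 0.14 and 0.21 in the vector replicates. A list of 20 other rapid-response genes of many cell types, such as Zfp36, Nfkbia and Socs3, had medians of 0.40, -0.85 and -0.16, against 0.05, 0.31 and 0.25, and 15 of the 20 were lowest in LINC00894 replicate 2. The 10 genes were evenly split in sign, whereas 15 of these 20 had a negative and 5 a positive log2 fold change. The median of the 20 was -0.35, and 48.2% of all genes had a negative value. Of the 20, 5 were lower and 0 higher at an unadjusted edgeR p under 0.05, against 2.22% and 1.82% of all genes. Without overlap 4 lay lower, against 3.88% of all genes, and 0 passed edgeR's adjusted p. The difference from the 10 genes was not tested. Of 11 stress-response genes that act beside Atf3, such as Ddit3, 9 were lowest in LINC00894 replicate 2. Their medians were 0.54, -0.70 and 0.008, against -0.07, 0.10 and -0.007. Their log2 fold change was positive in 7 and negative in 4, with a median of 0.22. At an unadjusted edgeR p under 0.05 there were 0, against 4.03% of all genes. Gadd45g, a growth arrest and DNA damage gene, stood at 58.1, 21.8 and 45.2 FPKM in LINC00894 libraries, against 42.4, 52.6 and 101.7 FPKM in vector libraries (-0.73, SE 0.39). For its relative Gadd45b the values were 41.8, 15.8 and 31.9 FPKM in LINC00894 libraries, against 43.1, 40.5 and 37.6 FPKM in vector libraries (-0.51, SE 0.29). Gdf15, a secreted stress cytokine, stood at 7.04, 0.85 and 4.20 FPKM in LINC00894 libraries, against 1.23, 1.68 and 2.23 FPKM in vector libraries (log2 fold change 1.15, SE 0.62). Cdkn1a, the p53 target p21, stood at 29.5, 9.62 and 21.0 FPKM in LINC00894 libraries, against 26.8, 27.2 and 20.0 FPKM in vector libraries (-0.37, SE 0.33).

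Immediate early genes used as markers of neuronal activity were uneven among the vector libraries as well. The list held Arc, Npas4 and Homer1, and also Egr, Fos, Jun and Nr4a genes, several of which other cell types induce too. It is thus not a measure of neurons alone. Of its 16 genes, 16 had a negative log2 fold change, against 48.2% of all genes tested, with a median of -1.43. At an unadjusted edgeR p under 0.05 there were 12 lower, against 2.22% of all genes, and 0 passed the adjusted p. Without overlap 8 lay lower and 0 higher, against 3.88% and 4.98% of all genes. LINC00894 replicate 2 was the lowest library for 10 of the 16, against 12.1% of all genes. Their median deviations were -0.45, -0.96 and -0.57 in LINC00894 libraries, against -0.10, 0.78 and 1.33 in vector libraries. Egr4, an activity-induced zinc finger factor, stood at 3.74, 3.55 and 5.34 FPKM in LINC00894 libraries, against 11.7, 32.5 and 48.2 FPKM in vector libraries, without overlap. The median deviation in LINC00894 replicate 1 was thus negative for this list and positive for the 10 genes. The difference between the lists was not tested. Among vector libraries, the median of this list was lowest in replicate 1 and highest in replicate 3. Of the 10 genes, Btg2, Atf3, Klf6 and Ccn1 had that order on the TMM scale. The share of all genes with that order was not counted, so nothing is read from it. Sik1, Per1 and Dusp6 of the other rapid-response list, named for their small unadjusted p in this contrast, had the same order of those libraries. Sik1, a salt-inducible kinase, stood at 7.64, 4.42 and 5.69 FPKM in LINC00894 libraries, against 7.44, 11.9 and 15.9 FPKM in vector libraries (-1.06, SE 0.29). The clock gene Per1 had 18.1, 15.7 and 11.7 FPKM in LINC00894 libraries, against 17.7, 25.5 and 51.4 FPKM in vector libraries (-1.13, SE 0.35). Dusp6, a MAP kinase phosphatase, had 14.3, 8.06 and 8.69 FPKM in LINC00894 libraries, against 9.22, 25.2 and 32.5 FPKM in vector libraries (-1.18, SE 0.40). The vector values of Ccn1 spanned far less than these. Its counting intervals in vector replicates 2 and 3 overlapped, at 280 to 351 and 276 to 347 counts.

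Flow-responsive endothelial genes (8 tested) had median deviations of 1.02, -0.81 and -0.18 in LINC00894 libraries, against -0.03, 0.32 and -0.21 in vector libraries. Of the 8, 5 had a positive log2 fold change and 3 were lowest in LINC00894 replicate 2. Nos3, the endothelial nitric oxide synthase and a known target of KLF2, stood at 16.9, 5.08 and 8.92 FPKM in LINC00894 libraries, against 8.05, 9.55 and 4.73 FPKM in vector libraries (log2 fold change 0.40, SE 0.39). Plat, the tissue plasminogen activator, which neurons also express, stood at 61.5, 28.2 and 40.5 FPKM, against 74.4, 70.4 and 66.7 FPKM, without overlap (-0.77, SE 0.24). Other YAP-TEAD targets (20 tested) had a median log2 fold change of -0.03, with 8 positive and 12 negative. Of these 20, 4 were lowest in LINC00894 replicate 2, against 12.1% of all genes. SRF and MRTF targets (11 tested) had a median log2 fold change of -0.25, with 5 positive and 6 negative. Of these 11, 5 were lowest in LINC00894 replicate 2. Srf itself stood at 25.7, 19.3 and 23.8 FPKM in LINC00894 libraries, against 26.4, 28.8 and 32.8 FPKM in vector libraries, without overlap (-0.42, SE 0.16). By edgeR 0 genes of these lists passed the adjusted p. At an unadjusted p under 0.05 there were 2 lower and 0 higher of the YAP-TEAD targets, and 2 lower and 0 higher of the SRF targets. The flow-responsive genes had 1 in each direction. Over all genes 2.22% were lower and 1.82% higher at that p. Without overlap there were 2 YAP-TEAD targets, 2 SRF targets and 1 flow-responsive gene lower, and 0 higher. Over all genes 3.88% lay lower and 4.98% higher without overlap.

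**Figure D5:**
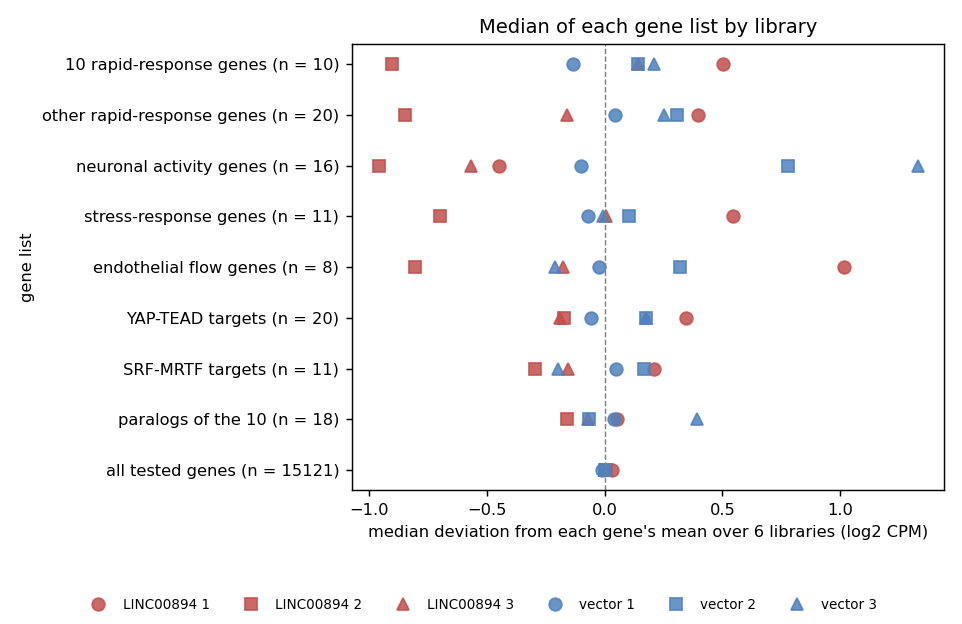
Median deviation of each gene list from its genes' means over 6 libraries (horizontal axis, log2 CPM), by library (red for LINC00894, blue for vector; circle, square and triangle for replicates 1, 2 and 3). LINC00894 replicate 2 lies at -0.90 for the 10 genes and at -0.96 for neuronal activity genes, while all tested genes have medians between -0.012 and 0.032.

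Summed markers of other cell types also differed between the libraries. Summed fibroblast markers stood at 103, 19.6 and 42.3 CPM in LINC00894 libraries, against 50.9, 98.7 and 28.7 CPM in vector libraries, from 4 of the 5 markers listed. Neutrophil markers stood at 40.5, 4.73 and 14.6 CPM, against 16.6, 5.70 and 4.07 CPM, with 3 of 5 markers counted in every library. Mural cell markers (8 of 8) stood at 220, 146 and 145 CPM, against 167, 209 and 155 CPM, and neuronal markers (9 of 9) at 5800, 8560 and 6970 CPM, against 8200, 7950 and 8100 CPM. LINC00894 replicate 1 thus had the highest endothelial, mural, neutrophil and fibroblast sums and the lowest neuronal sum of the 6 libraries. LINC00894 replicate 2 had the lowest fibroblast and the highest neuronal sum. Astrocyte, microglial and oligodendrocyte sums were 3550 to 4410, 384 to 462 and 4470 to 7450 CPM in LINC00894 libraries, against 2420 to 4390, 234 to 375 and 4470 to 10200 CPM in vector libraries. Blood and choroid plexus sums were 18.8 to 127 and 1.55 to 3.76 CPM, against 12.5 to 135 and 2.49 to 4.46 CPM. The part of these cell types in the levels of the 10 genes was not tested.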

How the data were processed

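Poly(A) RNA of rat brain was sequenced as paired ends in 6 libraries, per the labels' protocols, and groups follow the genotype label; replicate numbers are accession order only and pair nothing. The authors deposited 1 table holding raw counts and FPKM values for each gene and library, per the file headers; FPKM equalled counts scaled by exonic length and summed counts to within 0.005. HISAT2 2.0.1 and DESeq2 appear, with no role given, in the submitters' processing notes. Counting tool, genome build and strand setting: not given in the sources used here; no row of the table overlapped any of the 10 genes. The deposited table's exonic gene lengths were used as given, and rows without a symbol (388, 0.0184% to 0.032% of counts) stayed in the tests.

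Genes were filtered with filterByExpr (minimum count 10, total 15), scaled with TMM factors and tested with edgeR 4.0.16 (quasi-likelihood F-test, no covariates, R 4.3.3), with Benjamini-Hochberg adjustment over 15121 genes and a threshold of 0.05 (biological coefficient of variation 0.238). Log2 fold changes are LINC00894 over vector, SEs come from the F statistic, and CPM use TMM-scaled library sizes (0.5 added before log2). The steps were tested on simulated data. Alternatives were DESeq2 1.42.0, median-of-ratios scaling, other filters, limma 3.58.1 on log2 FPKM (pseudocount 1 or 0.1) or on weighted voom values, each library left out, and the 4 libraries with Y-linked counts. The 10 genes, the gene lists and the comparisons were chosen with earlier results of these data known. Symbols were matched exactly; Mcl1, Foxf2, Pecam1, Abcb1a and Col1a2 were not matched, and Ankrd1, Cnn1, Ccn4 and Ccn6 failed the filter. Gadd45a, Gadd45b, Acta2 and Tagln stand in more than 1 list. Named list genes were among the 4 with the smallest unadjusted p in their list, so a lack of overlap in them is no separate support. List examples were named as members only. The gene most like each of the 10 was the one with the highest Pearson's r. Promoter windows are from RefSeq (GRCr8). Plots were drawn with matplotlib 3.10.9.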

Additional observations from a re-analysis of the deposited data

How the results depend on the processing

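The finding that 0 of the 10 genes passed an adjusted p of 0.05 was the same in all 14 alternatives (smallest adjusted p 0.527). Over all genes 0 passed in 10 of them, and 8 passed by DESeq2, 8 without a filter, 9 without LINC00894 replicate 3 and 2 without vector replicate 1. The median log2 fold change of the 10, 0.0047 with all libraries, changed sign between alternatives. It ran from -0.35 without LINC00894 replicate 1 to 0.25 without LINC00894 replicate 2. In all 14 it moved by less than 0.531, the SD of the per-library medians of the 10, pooled over both groups. The left-out libraries themselves set that SD, so leaving 1 out could hardly move the median further, and no stability is read from it. The count at an unadjusted p under 0.05, 2 with all libraries (4.03% of all genes), was 1 among the 4 libraries with Y-linked counts (9.3% of all genes), 1 by limma on log2-transformed FPKM, pseudocounts 0.1 and 1 (4.47% and 4.49%), and 1 with sample weights (4.43%). It was 0 to 2 with a library left out, where 2.56% (without LINC00894 replicate 3) to 7.16% (without LINC00894 replicate 2) of all genes reached it; without LINC00894 replicate 1 it was Ccn1, lower. The count of genes without overlap, 1 with all libraries (8.86% of all genes), was 5 among the 4 libraries with Y-linked counts, where 1 LINC00894 library remains and 59.5% of all genes do not overlap. It was 0 on FPKM (10.1% of all genes) and 1 to 3 with a library left out (14.7% to 25.3%). Klf2, Ier5 and Klf4 kept their sign in all 14 alternatives. Of 80 values for single genes with other tools, scalings or libraries, 12 reversed. Among libraries with Y-linked counts these were Ccn1 (-0.36), Ccn2 (-0.26), Btg2 (0.36) and Atf3 (0.43). By limma on log2 FPKM they were Ier3 (-0.0735 with a pseudocount of 0.1 and -0.0499 with 1) and Ccn1 (-0.31 and -0.23). With sample weights they were Ier3 (-0.37), Ccn1 (-0.49), Ccn2 (-0.0538) and Klf6 (0.0589). Of 60 values with 1 library left out 13 reversed, within -0.0402 to 0.55 for Ier2, -0.47 to 0.40 for Ier3, -0.94 to 0.51 for Ccn1, -0.22 to 0.30 for Ccn2, -0.50 to 0.23 for Btg2, -0.42 to 0.31 for Atf3 and -0.46 to 0.21 for Klf6. The cause of these reversals was not tested. No paired analysis was possible because the replicate numbers only follow accession order. Counting error limits single values most for Ccn1 (66 counts in LINC00894 replicate 2), which still had 555 counts in LINC00894 replicate 1; among vector libraries some genes, such as Ccn1 with 231 to 314 counts, vary little more than their counting intervals.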

Other observations

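Close relatives of the 10 genes gave further values. Of 18 paralogs tested, 15 had a negative and 3 a positive log2 fold change, with a median of -0.13. Among all genes tested 48.2% had a negative value. By edgeR 0 of the 18 passed the adjusted p. At an unadjusted p under 0.05, 3 were lower and 0 higher, where 2.22% and 1.82% of all genes were. LINC00894 replicate 2 was the lowest library for 3 of the 18, against 12.1% of all genes. Klf9, a factor induced by glucocorticoids and thyroid hormone, stood at 33.3, 33.3 and 26.2 FPKM in LINC00894 libraries, against 44.7, 41.9 and 54.9 FPKM in vector libraries (log2 fold change -0.68, SE 0.17). Klf13 stood at 16, 16.7 and 9.47 FPKM in LINC00894 libraries, against 27.2, 24.4 and 25.1 FPKM in vector libraries (-0.93, SE 0.26). The groups did not overlap for either gene. Of the 18 paralogs, 2 lay lower and 0 higher without overlap, against 3.88% and 4.98% of all genes. Klf10, which TGF-beta induces early, stood at 16.04, 10.9 and 26.0 FPKM, against 34.2, 31.7 and 21.0 FPKM, with overlap (-0.79, SE 0.30). Sgk1, a kinase induced by glucocorticoids, is not a relative of the 10 and belongs to the list of other rapid-response genes above. It stood at 43.6, 35.8 and 41.0 FPKM in LINC00894 libraries, against 60.4, 55.0 and 62.0 FPKM in vector libraries, without overlap (-0.63, SE 0.14).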
